A study of Schizosaccharomyces pombe with 8 samples.

Results

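The genes described here encode the nuclear part of the mitochondrial respiratory chain and the ATP synthase of the fission yeast Schizosaccharomyces pombe. They were chosen by name: every gene whose symbol begins with qcr, cox, atp or sdh followed by a digit, together with cyc1, cyt1 and rip1, leaving out the genes carried on mitochondrial DNA. The rule found 57 of the 7092 features measured. Of these, 52 are protein-coding and 5 are antisense RNAs whose symbols begin in the same way. The coding genes divide into 4 subunits of complex II, 9 of complex III, cytochrome c, 8 of complex IV and 13 of the ATP synthase, which makes 35 genes, and 17 assembly factors that help to build complex II, complex IV or the ATP synthase but are not part of them. They are spread over the 3 nuclear chromosomes, with 19 on chromosome I, 19 on chromosome II and 14 on chromosome III.

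RNA was sequenced from 8 libraries in 4 groups of 2, and the deposited values combine the replicates of each group, so that every gene has 1 value per pool. The wild-type pools came from a strain of genotype h- leu1-32 ura4-D18, untreated or given 20 mM H2O2 for 15 min. The other pools came from a strain labelled ∆wee1, with the genotype h- wee1::ura4+ and the marker alleles leu-32 and ura4-D18 as the labels spell them, untreated or given the same H2O2. All groups therefore carry leu1 and ura4 mutations, and the ∆wee1 strain alone carries an intact ura4+ copy at wee1. Cells were in mid-log growth in rich medium (yeast extract with supplements, YES), and libraries were made with a stranded kit that selects mRNA by its poly(A) tail. Nothing in the labels says whether the replicates of a group were separate cultures. Levels are in FPKM, the fragments of a transcript scaled to its length and to the fragments mapped in the library.

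Wee1 is a kinase that delays entry into mitosis. The wee1 gene was listed at 8.91 FPKM in the untreated wild-type pool, 8.17 in the treated wild-type pool, 16.1 in the untreated ∆wee1 pool and 15.5 in the treated ∆wee1 pool. A gene disrupted by insertion was thus listed higher, not lower, in the strain that should lack it, and whether these fragments lie outside the inserted stretch cannot be seen in a value per gene. The inserted marker ura4 followed its label, at 0.131 and 0.0704 FPKM in the wild-type pools and 185 and 235 FPKM in the ∆wee1 pools. The mutant pools are called "labelled ∆wee1" below for this reason. As a check of the h- (minus) mating type, 6 genes specific to M cells summed to between 108 and 303 FPKM, and 4 genes specific to P cells to between 24.4 and 28.4 FPKM. The check rests on mfm2, at 267 and 221 FPKM in the wild-type pools and 91.7 and 79.0 FPKM in the ∆wee1 pools. The other M genes ran from 1.37 to 16.4 FPKM and the P genes from 2.47 to 15.8 FPKM, so these did not separate the types. No gene of either list was at 0. The treated wild-type pool stood apart in its composition: ribosomal RNA made up 22.2% of its summed FPKM, against 3.13% in untreated wild type, 10.9% in untreated ∆wee1 and 3.19% in treated ∆wee1. Nuclear protein-coding genes made up 95.1%, 73.2%, 86.8% and 93.5% in the order wild type untreated, wild type H2O2, ∆wee1 untreated and ∆wee1 H2O2. This is the order of every run of 4 FPKM values below. The summed FPKM of all features was not equal between pools, at 1380666, 2132026, 1315701 and 1342553. Nuclear coding genes with a mean of at least 1 FPKM summed to 1313392, 1559851, 1142213 and 1255674 FPKM. Their sum was thus highest, not lowest, in treated wild type.

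The respiratory chain passes electrons from reduced cofactors to oxygen and pumps protons across the inner mitochondrial membrane, and the ATP synthase uses the return flow to make ATP. Fission yeast has no proton-pumping complex I, and electrons enter through simple NADH dehydrogenases, through glycerol-3-phosphate dehydrogenase and through complex II, the succinate dehydrogenase that also belongs to the citric acid cycle. Ubiquinone carries them to complex III, and cytochrome c carries them on to complex IV, which reduces oxygen. Several core subunits are made inside the mitochondrion, so nuclear and mitochondrial genes must be expressed together. The chain is also a source of reactive oxygen species, and its iron-sulfur clusters and hemes make it a large user of iron. Roles given below are those known for the same proteins in budding yeast or mammals unless fission yeast is named.

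The promoters of the complex II genes are shown because 3 of the 4 genes, sdh1, sdh2 and sdh3, were lower in ∆wee1 between the treated pools. Those of rip1 and qcr8 are shown because rip1 had the largest H2O2 response of any subunit in wild type and qcr8 the highest level. Each sequence is the 100 bases before the annotated gene start, 5′ to 3′ on the strand of the gene, from RefSeq's ASM294v3 assembly. Capitals mark CCAAT, its reverse complement where the motif lies on the opposite strand (qcr8), and TGACGT in rip1. CCAAT is the motif bound by the Php complex of fission yeast, and TGACGT is the core of the site bound by Atf1, a transcription factor of its stress response.
sdh1, chrI:3798463-3798562, minus strand: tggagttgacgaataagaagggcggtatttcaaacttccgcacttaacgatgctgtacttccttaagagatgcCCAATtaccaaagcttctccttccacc
sdh2, chrI:1895331-1895430, plus strand: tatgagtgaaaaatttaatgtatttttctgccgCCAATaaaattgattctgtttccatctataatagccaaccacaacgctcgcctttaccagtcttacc
sdh3, chrIII:136649-136748, minus strand: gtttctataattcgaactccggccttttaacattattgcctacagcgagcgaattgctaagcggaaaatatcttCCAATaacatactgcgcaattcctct
sdh4, chrII:2035960-2036059, plus strand: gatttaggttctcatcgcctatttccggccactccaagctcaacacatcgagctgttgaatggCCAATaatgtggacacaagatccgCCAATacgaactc
qcr8, chrI:4766956-4767055, plus strand: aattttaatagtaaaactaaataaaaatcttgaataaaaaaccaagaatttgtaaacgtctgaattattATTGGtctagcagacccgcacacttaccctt
rip1, chrII:2290114-2290213, minus strand: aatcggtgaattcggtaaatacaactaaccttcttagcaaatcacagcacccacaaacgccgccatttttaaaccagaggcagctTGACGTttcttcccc

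In these 100 bases all 4 complex II promoters held CCAAT on the strand of the gene, a feature found in 8.15% of 5105 nuclear protein-coding promoters of the same length. On that strand 4 of 9 complex III promoters, that of cytochrome c, 1 of 8 of complex IV and 3 of 13 of the ATP synthase held it. This made 13 of the 35 subunit genes, or 37.1%, beside 2 of 17 assembly factors. The motif began 27 bases before the start of sdh1, 67 before that of sdh2, 26 before that of sdh3, and 13 and 37 before that of sdh4. On either strand it occurred in 7 of 9 complex III promoters, in the cytochrome c promoter, in 2 of 8 complex IV promoters, in 4 of 13 ATP synthase promoters and in 5 of 17 assembly factor promoters, against 15.7% of all. Over 250 bases the counts were 27 of 52 coding genes, or 51.9%, against 35.4% of all promoters. TGACGT was found over 250 bases, on either strand, in 3 of the 52 genes, or 5.77%, against 5.52% of all. A match in these letters describes the window and does not show binding, and no source used here names the assembly the authors aligned to.

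The subunits were highly expressed. The mean level over the 4 pools ran from 104 FPKM for cox7 to 1294 FPKM for qcr8, and all 35 subunit genes lay above 37.3 FPKM, the median of the mean levels of nuclear protein-coding genes. Of the 35, 29 were in the top 10% of those genes. The assembly factors were much lower, from a mean of 6.26 FPKM for cox1101 to 119 FPKM for cox17, the copper chaperone of complex IV, and 6 of 17 lay above the same median. Cox17 held nearly the same level in all pools, at 115, 122, 116 and 122 FPKM. Of the complex II factors sdh7 was at 28.5, 32.2, 35.9 and 38.6 FPKM and sdh8 at 68.0, 86.2, 72.5 and 86.9 FPKM. Of those of the ATP synthase atp11, a chaperone of the β subunit, had the highest mean (48.9, 80.0, 37.3 and 45.4 FPKM) and atp10 the lowest (26.0, 18.2, 27.3 and 23.8 FPKM). In each pool the mean subunit level was between 10.4 and 12.4 times the mean assembly factor level.

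**Figure D1:**
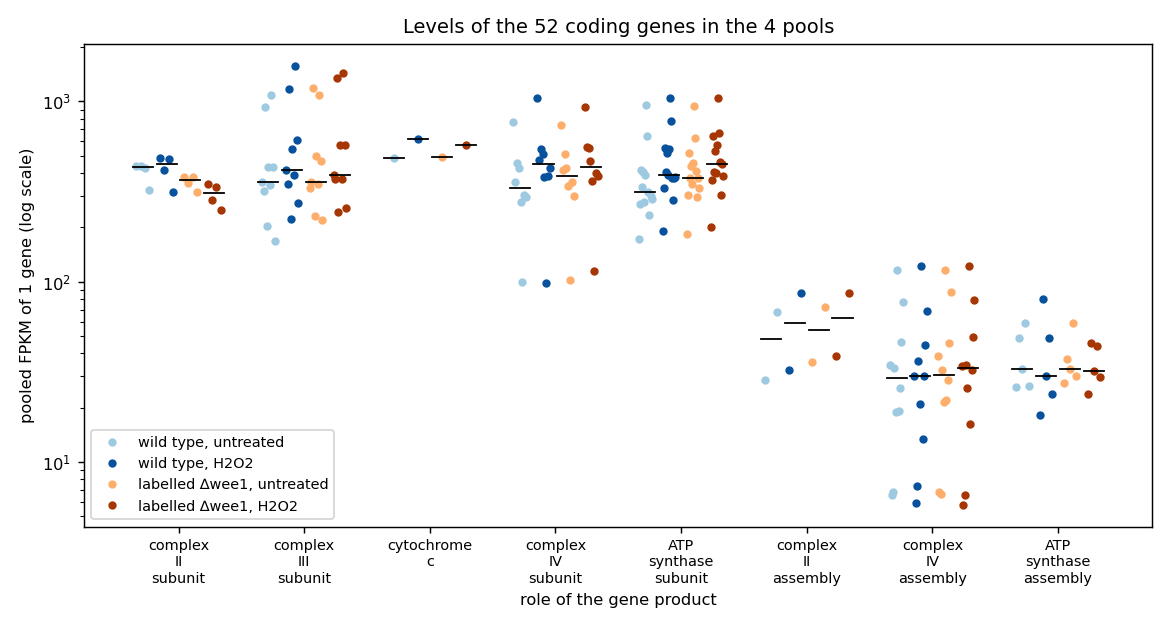
Pooled FPKM of each coding gene on a log scale, grouped by the role of its product, with 1 point per gene and pool and a black bar at the median of each group. The 4 complex II genes lie close together, and the assembly factors lie about 1 log unit below the subunits.

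The genes of complex II were expressed at nearly matched levels. Within a pool the highest of its 4 subunits was 1.22 to 1.55 times the lowest, with sdh1, the flavoprotein that oxidises succinate, always highest and sdh4, a membrane anchor, always lowest. Within complex III the ratio of highest to lowest was between 5.38 and 7.05, within complex IV between 7.24 and 10.6, and within the ATP synthase between 5.10 and 5.49. Complex III was led by 2 small subunits, qcr8 (1089, 1571, 1087 and 1427 FPKM) and qcr10 (929, 1168, 1184 and 1341 FPKM). Its lowest mean level was that of qcr2 (203, 223, 232 and 243 FPKM), a core protein. In complex IV cox12 was highest at 764, 1038, 737 and 925 FPKM, and cox7 lowest at 100.1, 98.3, 102 and 115 FPKM.

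The catalytic subunits of the ATP synthase are present in equal number in the enzyme, but their RNA levels were far apart. The β subunit gene atp2 was the highest of the complex at 949, 1042, 941 and 1039 FPKM. The α subunit gene atp1 was the lowest at 173, 190.3, 184 and 199.9 FPKM. The ratio of atp2 to atp1 was 5.49, 5.48, 5.10 and 5.20 in the 4 pools. FPKM divides by transcript length, and RefSeq's annotated atp1 transcript is 4795 bases for a coding length of 1611, while that of atp2 is 1894 bases for 1578. The effect of the transcript length the authors used on this ratio was not tested.

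Summed over the 35 genes, subunit RNA took 1.09%, 1.15%, 1.35% and 1.39% of the FPKM of nuclear protein-coding genes. The ATP synthase accounted for 0.380%, 0.395%, 0.490% and 0.511%, complex III for 0.325%, 0.355%, 0.414% and 0.441%, and complex IV for 0.227%, 0.248%, 0.279% and 0.300%. For these 3 complexes both ∆wee1 pools had a larger share than both wild-type pools. Most nuclear coding genes were also higher in ∆wee1 once the pools were rescaled to equal summed FPKM of such genes. Of 4949, 3830 had a log2 ratio above 0 without H2O2 and 4056 with it. Their medians were 0.23 and 0.35. Those of complex III were 0.38 and 0.25, of complex IV 0.30 and 0.28, and of the ATP synthase 0.39 and 0.37. Complex II took 0.124%, 0.109%, 0.125% and 0.0968%, and its treated ∆wee1 pool was the lowest of the 4. These shares come from single pools, so no spread can be set beside them.

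After hydrogen peroxide in wild type, 8 genes rose, all subunits of complexes III and IV or of the ATP synthase, and the complex II genes had ratios near 0. By the authors' deposited table, at a q-value under 0.05, 8 of the 52 coding genes (15.4%) rose and 0 fell, where 6.96% of all tested features rose and 7.47% fell. Among the 1173 nuclear coding genes with a mean of at least 100 FPKM, the range in which all subunits lie, 11.8% rose, beside 22.9% of the 35 subunit genes. The 8 genes were 2 of complex III, 3 of complex IV and 3 of the ATP synthase. Changes are given as the log2 ratio of FPKM + 1, and each ± is the standard error (SE) implied by the authors' fold change and statistic, for pools of 2 libraries.

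In complex III, rip1, the Rieske iron-sulfur protein that takes electrons from ubiquinol, was at 168 FPKM untreated and 274 FPKM treated. It rose by 0.70 ± 0.33, the largest change of any subunit, with a q-value of 0.025 in the authors' deposited table. Qcr8 was at 1089 and 1571 FPKM and rose by 0.53 ± 0.24 (q-value 0.015 in the authors' deposited table). The other 7 genes of the complex had ratios between 0.14 and 0.50, all above 0, and none was called. That set includes the core proteins qcr1 and qcr2 and the heme protein cyt1.

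In complex IV the gene with the lowest q-value of all members was cox9, at 295 and 428 FPKM. It rose by 0.54 ± 0.21 with a q-value of 0.0028 in the authors' deposited table. Cox6 was at 278 and 382 FPKM and rose by 0.46 ± 0.21 (q-value 0.019 in the authors' deposited table), and cox13 at 357 and 471 FPKM and rose by 0.40 ± 0.21 (q-value 0.049 in the same table). All 3 encode small subunits that surround the catalytic core, which is made in the mitochondrion. Of the other 5, cox12 had a ratio of 0.44 ± 0.43 and cox7 one of -0.03 ± 1.20, so that their errors were as large as the changes.

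In the ATP synthase the genes that rose were atp18, atp15 and atp7. Atp18, a small subunit of the membrane part, was at 275 and 389 FPKM (0.50 ± 0.24, q-value 0.020 in the authors' deposited table). Atp15, the ε subunit of the central stalk, was at 417 and 554 FPKM (0.41 ± 0.21, q-value 0.040 in the authors' deposited table). Atp7, the d subunit of the outer stalk, was at 289 and 378 FPKM (0.39 ± 0.21, q-value 0.047 in the authors' deposited table). All 13 subunits had ratios above 0, from 0.13 for atp2 to 0.50 for atp18. Cytochrome c, the small carrier between complexes III and IV, was at 482 and 615 FPKM with a ratio of 0.35 ± 0.22 and was not called.

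In complex II none of the 4 genes was called, and the ratios were 0.15 for sdh1, -0.08 for sdh2, 0.15 for sdh3 and -0.03 for sdh4, with SE between 0.21 and 0.23. The median ratio was 0.06 for complex II, 0.33 for complex III, 0.38 for complex IV and 0.29 for the ATP synthase. Over the 35 subunit genes it was 0.29, with 32 above 0. The median over nuclear protein-coding genes was -0.03, with 47.3% above 0, and over those with at least 100 FPKM it was 0.20, with 79.9% above 0. None of the 17 assembly factors was called, and their median was -0.04, with 8 above 0. The assembly factor with the largest ratio was atp11 (0.70 ± 0.48), and the lowest were atp10 at -0.50 ± 0.31 and cox18, the inserter of a complex IV core subunit, at -0.49 ± 0.66.

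**Figure D2:**
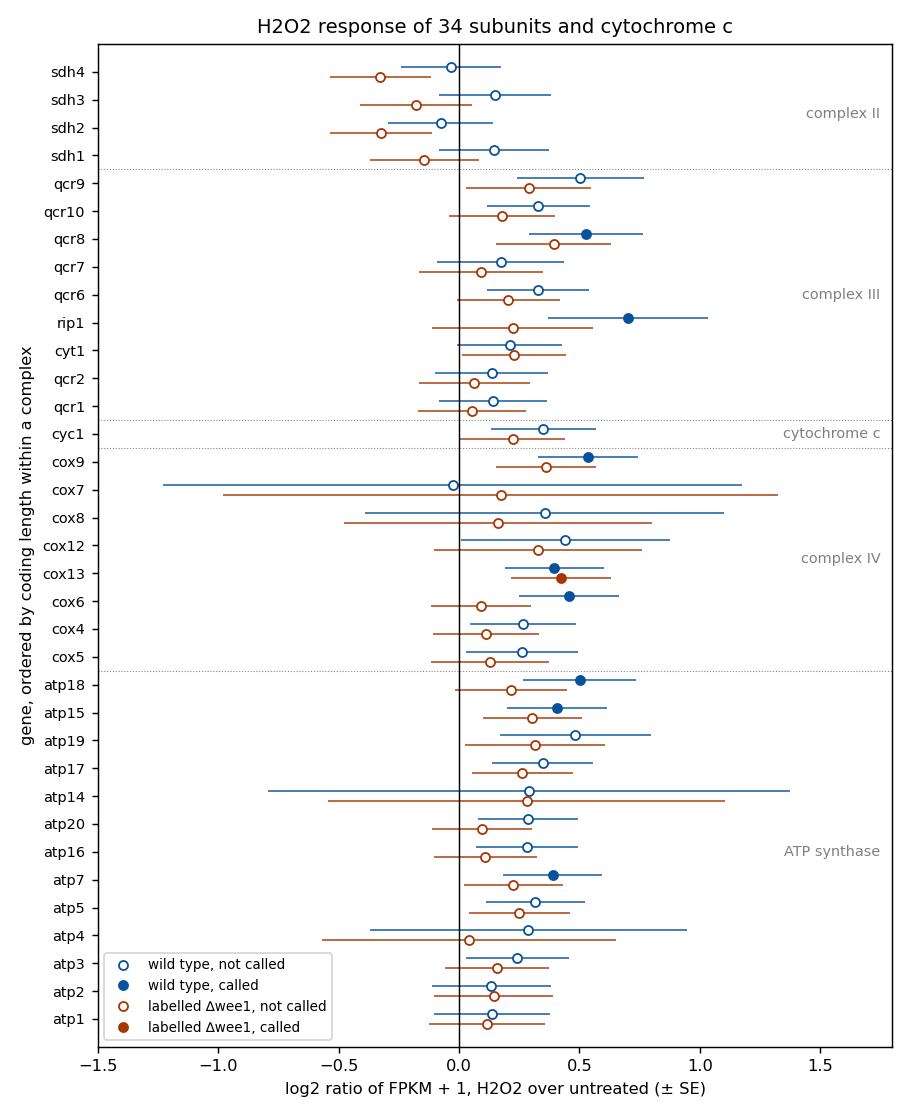
The log2 ratio of FPKM + 1, treated over untreated, for the 34 subunits and cytochrome c in wild type (blue) and in the pools labelled ∆wee1 (brown), with bars of 1 SE. Filled points are called in the authors' deposited table: 8 in wild type and 1 in ∆wee1.

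Coding length moved with the wild-type response: shorter genes had higher ratios, among subunits and among all genes. The 11 subunit genes of up to 300 coding bases had a median of 0.44, those of 300 to 600 bases 0.28, those of 600 to 1200 bases 0.29, and the longer ones 0.14. For nuclear protein-coding genes of at least 100 FPKM the medians of the same classes were 0.29, 0.25, 0.20 and 0.11. Spearman's rho with coding length was -0.60 across the 35 subunit genes and -0.27 across those 1173 genes, given as a description because genes of a pool share its library. The median coding length was 480 bases for subunits and 777 for the 1173 genes. The part of length in the response was not tested.

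**Figure D3:**
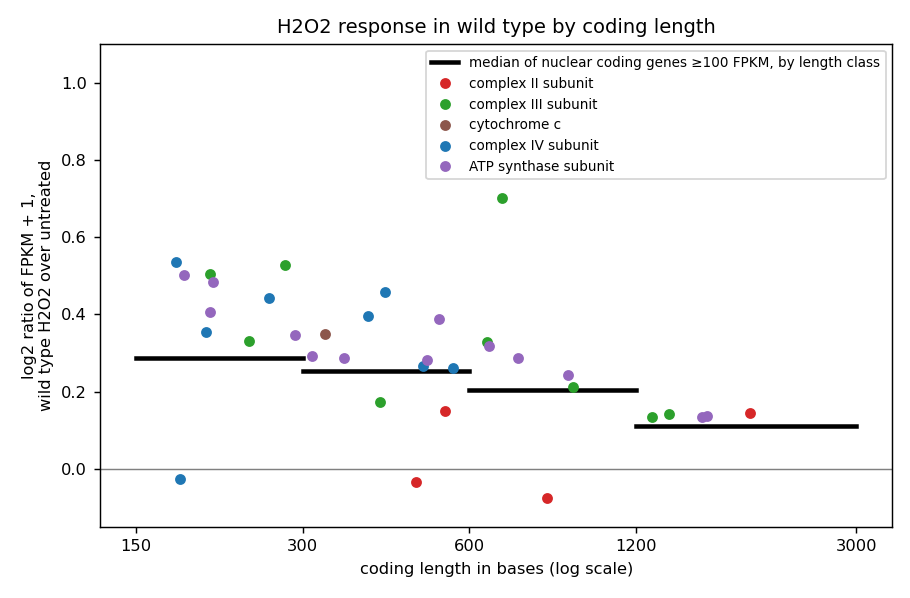
Wild-type H2O2 response of each subunit gene, as the log2 ratio of FPKM + 1, against its coding length on a log scale, coloured by complex. Black bars are medians of nuclear protein-coding genes of at least 100 FPKM in 4 length classes; 3 of the 4 complex II genes lie below them.

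The size of the response also depended on how the pools were scaled. When the pools were rescaled to equal summed FPKM of nuclear protein-coding genes, the median of all such genes moved from -0.03 to -0.27 and that of the 35 subunit genes from 0.29 to 0.04. The distance between these medians was 0.32 as deposited and 0.31 after this rescaling, which multiplies each pool by a common factor and so can hardly change it. It was 0.09 after quantile normalization, which also takes out changes shared by genes of like level. The calls themselves rest on p-values in the authors' deposited table that are smaller than those a normal curve gives for the statistic in the same table. With p-values from the normal curve, adjusted over all tested genes by Benjamini-Hochberg, 0 of the 8 members were called, and 6 members had an unadjusted p below 0.05, against 19 in the authors' deposited table.

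In the pools labelled ∆wee1 the response to H2O2 again had ratios above 0, as deposited, for the subunits outside complex II, and complex II had ratios below 0. By the authors' deposited table, 1 of the 52 coding genes rose and 0 fell, where 5.34% of all tested features rose and 4.13% fell. The gene was cox13, at 413 FPKM untreated and 555 FPKM treated, with a ratio of 0.42 ± 0.21 and a q-value of 0.024 in the authors' deposited table. It was also among the genes called in wild type. With normal-curve p-values it was not called, and 1 member had an unadjusted p below 0.05, against 7 in the authors' deposited table.

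The median ratio in these pools was 0.17 over the 35 subunit genes, with 31 above 0, beside -0.03 over nuclear protein-coding genes and 0.10 over those of at least 100 FPKM. By complex it was 0.20 for complex III, 0.17 for complex IV and 0.22 for the ATP synthase, and all 30 genes of these 3 complexes had ratios above 0. The largest of complex III was qcr8 at 0.39 ± 0.24 and the largest of the ATP synthase was atp19 at 0.32 ± 0.29. Complex II had a median of -0.25, and its 4 genes ran from -0.33 for sdh4 to -0.14 for sdh1. None of the 4 was called. Among assembly factors the median was -0.00, and the lowest were cox18 at -0.42 ± 0.60 and atp23 at -0.41 ± 0.24. Rescaled to equal sums, the median of all nuclear coding genes moved from -0.03 to -0.17 and the subunit median to 0.04, and under quantile normalization the subunit median was -0.02, with complexes III and IV at -0.02 each. Complex II was below 0 in ∆wee1 under every scaling tried, and in wild type it was also below 0 at equal sums (-0.19) and after quantile normalization (-0.19). The distance of the subunit median from that of all nuclear coding genes was 0.21 as deposited and 0.02 after quantile normalization. At equal sums it was 0.20, where a common factor per pool can hardly change it.

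The responses of the 2 strains come from different libraries and can be set side by side. Across the 52 coding genes Pearson's r was 0.82 and Spearman's rho 0.82, and 47 genes had the same sign, as a description of these pools. The ratio was larger in wild type for 40 of the 52 as deposited, but at equal sums it was larger in ∆wee1 for 28 of them. The difference of the responses was tested by a normal z test on the implied errors, adjusted over 6108 genes, which called 0.311% of them and 0 members. No member had an unadjusted p below 0.05, and the lowest was 0.214 for cox6, at 278, 382, 339.5 and 362 FPKM. Over all genes the z statistics of this test had a robust SD of 0.451, narrower than the normal curve assumes. A lack of calls therefore does not show that the responses were equal. The median difference, ∆wee1 minus wild type, was -0.13 over the 35 subunit genes, with 4 above 0, beside -0.08 over nuclear coding genes of at least 100 FPKM, of which 31.1% were above 0. At equal sums these medians were -0.02 and 0.03. For complex II the differences were -0.29 ± 0.32 for sdh1, -0.25 ± 0.30 for sdh2, -0.33 ± 0.33 for sdh3 and -0.29 ± 0.29 for sdh4. Their unadjusted p ran from 0.316 to 0.416, so neither a difference nor its absence is shown gene by gene.

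Without H2O2 no member differed between the strains in the authors' deposited table: 0 of 52 rose and 0 fell, where 4.64% of tested features were higher in ∆wee1 and 4.21% lower. At an unadjusted p below 0.05 in that table, 6 members were higher and 1 lower, and on the normal curve 0 passed. The median ratio of the 35 subunit genes was 0.17, with 26 above 0, beside 0.03 over all nuclear coding genes. The highest were rip1 (168 and 220.0 FPKM, 0.39 ± 0.34) and the γ subunit gene atp3 (316 and 412 FPKM, 0.38 ± 0.21). All 4 complex II genes had ratios below 0, from -0.31 ± 0.22 for sdh2 to -0.03 ± 0.21 for sdh4. At equal summed FPKM 2 of these 4 were above 0, and the median of all nuclear coding genes moved from 0.03 to 0.23.

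Between the treated pools, the only members called in the authors' deposited table were genes of complex II. By the authors' deposited table, 3 of the 52 coding genes (5.77%) were lower in ∆wee1 and 0 higher, where 7.01% of all tested features were lower and 6.51% higher. Among the nuclear coding genes of at least 100 FPKM, 17.1% were lower, beside 8.57% of the 35 subunit genes. The count is therefore no larger than the background. That all 3 are subunits of complex II was seen from the calls themselves and was not tested. Genes outside the naming rule were also called between these pools, as given below. Among them lat1, oac1 and etp1 were lower in ∆wee1, and mdh1, idh1 and anc1 higher.

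Sdh1 was at 440 FPKM in untreated wild type, 487 in treated wild type, 383 in untreated ∆wee1 and 346 in treated ∆wee1. Both ∆wee1 pools lay below both wild-type pools. Between the treated pools sdh1 was lower in ∆wee1 by a log2 ratio of -0.49 ± 0.23, with a q-value of 0.020 in the authors' deposited table. Sdh2, the iron-sulfur subunit that passes electrons on from sdh1, was at 440, 417, 354 and 283 FPKM, with the same order of strains. Its ratio between the treated pools was -0.56 ± 0.21, with a q-value of 0.0022 in the authors' deposited table. Sdh3, which anchors the enzyme in the membrane, was at 429, 476, 381 and 336 FPKM, again with both ∆wee1 pools lowest, and its ratio was -0.50 ± 0.23 (q-value 0.022 in the authors' deposited table). Sdh4 was at 321, 313, 313 and 249.8 FPKM, so that here only the treated ∆wee1 pool stood below the others. Its ratio was -0.33 ± 0.21 and it was not called (q-value 0.14 in the authors' deposited table).

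The assembly factors of complex II did not share this pattern in direction: sdh7 had a ratio of 0.26 ± 0.34 between the treated pools and sdh8 one of 0.01 ± 0.25, and neither was called. The median was -0.50 for complex II, -0.06 for complex III, -0.03 for complex IV and 0.06 for the ATP synthase, beside 0.05 for all nuclear coding genes and -0.10 for those of at least 100 FPKM. The largest ratios outside complex II were 0.30 ± 0.22 for atp3 and -0.23 ± 0.21 for atp20 among subunits, and -0.80 ± 0.53 for atp11 among assembly factors.

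**Figure D4:**
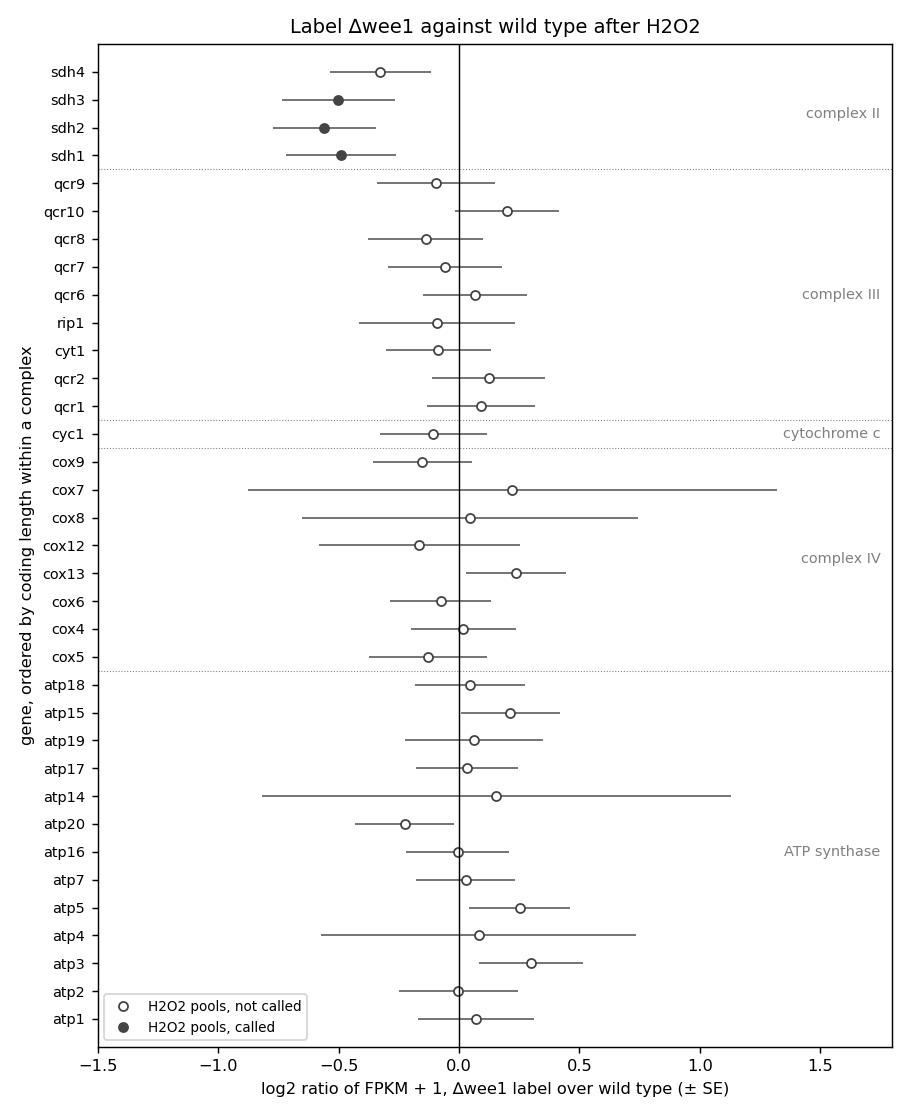
The log2 ratio of FPKM + 1 of the treated pool labelled ∆wee1 over treated wild type for the 34 subunits and cytochrome c, with bars of 1 SE. The 3 filled points, called in the authors' deposited table, are sdh1, sdh2 and sdh3, and sdh4 lies on the same side of 0.

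The comparison of complexes within a pool does not depend on how pools are scaled to each other by a common factor. The mean FPKM of the 4 complex II genes was 99.9% of the mean of the 30 other complex subunits in untreated wild type, 81.6% in treated wild type, 79.4% in untreated ∆wee1 and 58.0% in treated ∆wee1. It was lower after H2O2 in both strains and lower in ∆wee1 in both conditions. In wild type the mean of complex II was 407 FPKM untreated and 423 treated, while that of the others was 408 and 519 FPKM. In ∆wee1 complex II had 358 and 304 FPKM and the others 450.5 and 524 FPKM. With 1 value per pool this ratio carries no error and no test.

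The direction of the complex II difference between treated pools was kept under every scaling tried: its median was -0.50 as deposited, -0.18 at equal sums, -0.52 at a median ratio of 0 and -0.47 after quantile normalization. Its distance from the median of all nuclear coding genes was -0.55, -0.53, -0.55 and -0.47 in the same order. Equal sums and a median of 0 multiply each pool by a common factor, which leaves such a distance almost fixed. Only quantile normalization could have changed this distance by much. With normal-curve p-values 0 of the 3 genes were called and 3 members had an unadjusted p below 0.05, against 6 in the authors' deposited table. Treated wild type is also the pool with the largest share of ribosomal RNA, and the part of that share in the difference was not tested beyond these scalings.

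**Figure D5:**
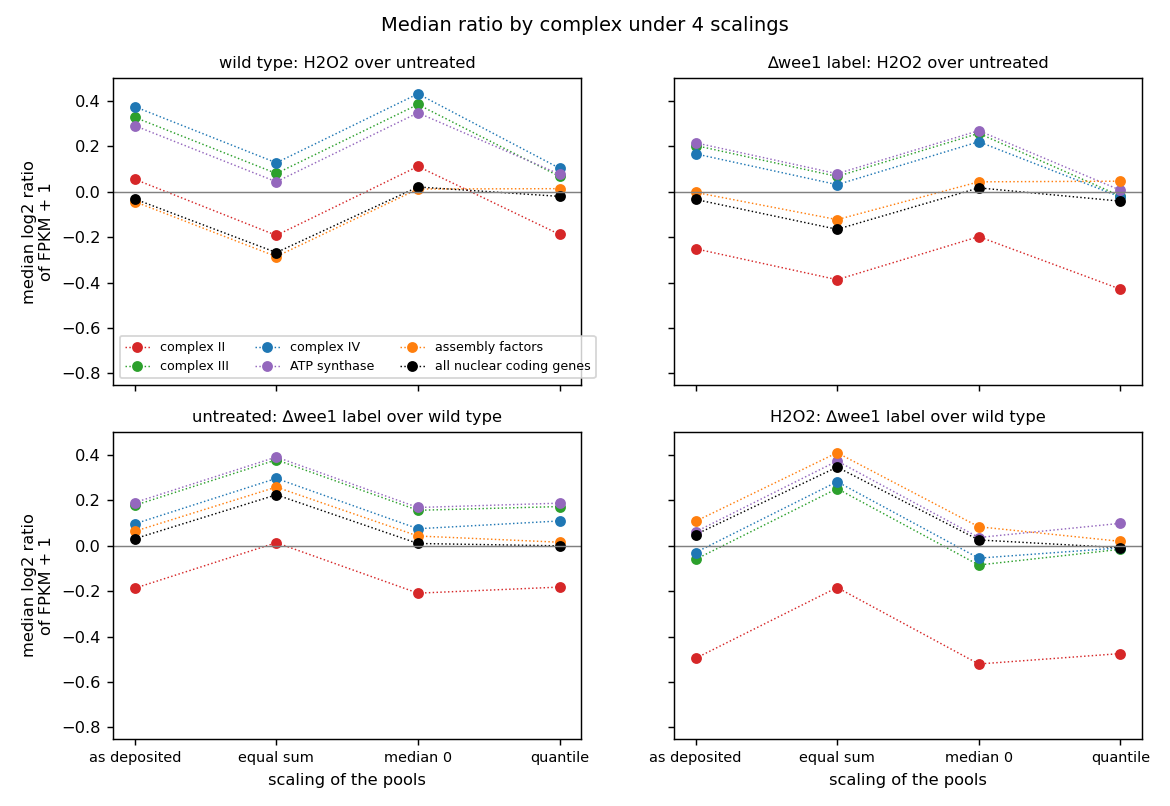
Median log2 ratio of FPKM + 1 in the 4 comparisons for each complex, the assembly factors and all nuclear protein-coding genes, under the deposited scaling and 3 others. Equal sums move all groups together, and complex II (red) is lowest under all 4 scalings in every panel but that of the wild-type response, where it is lowest after quantile normalization alone.

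No gene named as called in the lists that follow changed sign under the scalings tried (quantile normalization covers nuclear genes alone). For every count in these lists, the shares over all tested features are the background. In the H2O2 response 6.96% rose and 7.47% fell in wild type, and 5.34% rose and 4.13% fell in ∆wee1. Between strains 4.64% were higher and 4.21% lower in ∆wee1 without H2O2, and 6.51% higher and 7.01% lower with it. Of the regulators, the list held 7 genes of carbon source and CCAAT-binding factors. Php4, which in fission yeast joins the Php complex when iron is short and represses iron-using genes, sdh4 among them, was at 37.1, 40.9, 65.1 and 64.7 FPKM. It was higher in ∆wee1 than in wild type without H2O2, by 0.79 ± 0.22, and with it, by 0.65 ± 0.22, each with a q-value of 0.00082 in the authors' deposited table. Both ∆wee1 pools lay above both wild-type pools. The part of php4 in the levels of the complex II genes was not tested. The DNA-binding subunits php2 (32.0, 20.0, 44.0 and 30.8 FPKM), php3 and php5 were not called in any comparison. Scr1, a repressor active on glucose, was at 10.1, 3.94, 12.0 and 6.59 FPKM. It fell in both responses (-1.17 ± 0.25 and -0.78 ± 0.24) and was higher in treated ∆wee1 than in treated wild type by 0.62 ± 0.25. Rsv2 had ratios of 0.94 ± 0.67 and 1.08 ± 0.83 in the 2 responses and was not called. Over the list 0 rose and 1 fell in each response, and 1 and 2 were higher and 0 lower in ∆wee1 without and with H2O2.

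Heme is needed by complexes II, III and IV and by cytochrome c. Of 8 genes of its synthesis, 7 were tested, 0 rose in either response, and 1, hem13, fell in ∆wee1 (289 to 207 FPKM, -0.48 ± 0.22). Hem13 had -0.37 ± 0.22 in wild type, not called, and the difference of its responses was not called. Between strains 2 were lower in ∆wee1 without H2O2 and 2 with it, and 0 were higher. Ups1, the uroporphyrinogen-III synthase, was at 45.1, 54.3, 30.1 and 33.2 FPKM and lower in both comparisons (-0.57 ± 0.23 and -0.69 ± 0.22). Hem1, the enzyme that starts the pathway, was lower without H2O2 (242 against 164 FPKM, -0.56 ± 0.28), and hem3 was lower with it (59.6 against 36.3 FPKM, -0.70 ± 0.31). The list's medians between strains were -0.22 and -0.30, beside 0.03 and 0.05 over all nuclear coding genes, and at equal sums -0.03 and -0.03, beside 0.23 and 0.35.

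Of 14 genes of the citric acid cycle and pyruvate dehydrogenase, 0 were called in either H2O2 response, with medians of 0.09 in wild type and 0.02 in ∆wee1 (-0.15 and -0.11 at equal sums, -0.10 and -0.10 after quantile normalization). Between strains mdh1, the mitochondrial malate dehydrogenase, was higher in ∆wee1 in both conditions, at 300.4, 346, 448 and 593 FPKM (0.58 ± 0.22 and 0.78 ± 0.22). Between the treated pools idh1, of isocitrate dehydrogenase, was also higher (0.40 ± 0.21), while lat1, of pyruvate dehydrogenase, was lower (-0.44 ± 0.22). The counts between strains were thus 2 higher and 1 lower with H2O2 and 1 higher and 0 lower without it. Between the treated pools 6 of the 14 had ratios above 0. Pda1, pdb1, pdx1 and dld1 had -0.40, -0.39, -0.25 and -0.27 there and were not called. The list's medians between strains were -0.01 without H2O2 and -0.13 with it, beside 0.03 and 0.05 over all nuclear coding genes. At equal sums they were 0.19 and 0.18, beside 0.23 and 0.35.

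Of 18 genes that feed electrons into the chain or make ubiquinone, 1 rose and 1 fell in wild type and 2 rose and 0 fell in ∆wee1. The gene the files call nde2 (SPAC3A11.07), an NADH dehydrogenase, rose in both, at 219, 309, 148 and 235 FPKM (0.50 ± 0.23 and 0.66 ± 0.23). Gut2, the glycerol-3-phosphate dehydrogenase, was at 165, 160.1, 103 and 175.5 FPKM and rose in ∆wee1 (0.77 ± 0.23). Its wild-type ratio was -0.05 ± 0.23, and the difference of its responses was not called. Dlp1, a subunit of the enzyme that makes the ubiquinone side chain, fell in wild type from 30.2 to 9.45 FPKM (-1.58 ± 0.47). It was higher in treated ∆wee1 than in treated wild type (1.03 ± 0.46). The ∆wee1 response of dlp1 was -0.25 ± 0.39, and the difference of its responses was not called. Without H2O2 4 genes were lower in ∆wee1: nde2, gut2, ura3, the dihydroorotate dehydrogenase of pyrimidine synthesis (219 against 131 FPKM, -0.74 ± 0.21), and etp1, at 117 against 84.6 FPKM (-0.46 ± 0.20). Ura3 and etp1 were also lower with H2O2, at -0.56 ± 0.21 and -0.50 ± 0.20. The ∆wee1 strain alone carries an intact ura4+ copy. For ura3, as for every difference between strains, the parts of ura4+ and of wee1 cannot be told apart. Etp1 is a fusion of Cox15, which makes heme A for complex IV, with the ferredoxin of iron-sulfur cluster synthesis, and it was named after its values were seen.

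Of the 3 inner and outer membrane carriers, anc1, the ADP/ATP carrier, was at 419, 394, 539 and 612 FPKM and was higher in treated ∆wee1 (0.63 ± 0.23). Oac1, a carrier of oxaloacetate in budding yeast, was at 171, 186, 128 and 114 FPKM and lower there (-0.70 ± 0.27). The porin por1 was at 422, 592, 442 and 574 FPKM and was not called. No carrier was called in either H2O2 response or between untreated pools.

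Assembly factors and accessory subunits outside the naming rule numbered 30, of which 29 were tested. In wild type 3 rose and 2 fell, and in ∆wee1 0 rose and 2 fell, with medians of -0.06 and -0.07. Oxa102, an inserter of proteins into the inner membrane, fell in both strains, at 37.9, 15.8, 34.4 and 20.5 FPKM (-1.22 ± 0.24 and -0.72 ± 0.23). Rcf2, a respiratory supercomplex factor, also fell in both, at 95.0, 63.6, 90.2 and 66.4 FPKM (-0.57 ± 0.21 and -0.44 ± 0.21). The 3 that rose in wild type were pet117, cyc2 and inh1, the inhibitor of the ATP synthase (169 to 226 FPKM, 0.42 ± 0.21). In ∆wee1 these 3 had ratios of 0.46 ± 0.25, 0.28 ± 0.28 and 0.37 ± 0.21 and were not called. The differences of their responses were not called either. Cmc4, coa2 and fmc1 had the next largest ratios after oxa102 and were not called. Cyc3, which attaches heme to cytochrome c, was higher in treated ∆wee1 than in treated wild type (55.8 against 77.6 FPKM, 0.47 ± 0.24). Rcf2, pet117, cyc2, inh1 and cyc3 were named after their values were seen.

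Of the 9 pentatricopeptide repeat proteins, which bind mitochondrial RNA, 1 rose and 2 fell in each strain. Ppr8 rose from 125 to 204 FPKM in wild type and from 142 to 195 FPKM in ∆wee1. Ppr10 fell from 34.8 to 17.7 FPKM in wild type (-0.94 ± 0.27) and also in ∆wee1 (-0.83 ± 0.29), and ppr7 from 26.1 to 15.3 and from 27.2 to 19.2 FPKM. Ppr3 had the next largest ratio, -0.37 ± 0.24 in the wild-type response, and was not called. None of the 9 was called between strains.

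The subunits encoded in mitochondrial DNA were low in these poly(A)-selected libraries except in 1 pool. Cox1, the catalytic subunit of complex IV, was at 1.04, 26.8, 2.65 and 1.45 FPKM, cox2 at 2.59, 52.5, 4.32 and 1.83 FPKM, and cox3 at 1.15, 37.0, 3.23 and 2.07 FPKM. Atp6 was at 2.01, 16.4, 1.85 and 2.36 FPKM, cob1, the cytochrome b of complex III, at 0.485, 28.8, 2.70 and 0.791 FPKM, and atp9 at 2.57, 123, 5.60 and 2.93 FPKM. The treated wild-type pool was the high one for all 6, and atp8 was listed at 0 throughout. By the authors' deposited table cox1, cox2, cox3 and atp6 (4 genes) rose in wild type, by 2.53 to 4.14 on the log2 scale, while cob1 and atp9 were not called. Between the treated pools 5 were lower in ∆wee1. The z test of the response difference called cox1, cox2 and cox3 (adjusted p 2.4e-16, 2.9e-11 and 5.9e-11) but not atp6. It gave no value for cob1, atp8 and atp9. Treated wild type, the high pool, also had the largest ribosomal RNA share, and the part of that share in these values was not tested.

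The 5 antisense RNAs caught by the rule were all below the lowest subunit gene, in the range of the assembly factors or lower. That named for atp3 was at or below 0.210 FPKM in every pool and was not tested, and the other 4 ran from 2.73 to 53.5 FPKM. None was called. Qcr10-antisense-1 had the largest ratios, at 4.21, 2.73, 7.24 and 9.95 FPKM, with 1.55 ± 0.70 between the treated pools, and qcr10 itself had 0.20 ± 0.22 there. The kit keeps strand, but no source used here gives the strand setting of the counting, so reads of a gene and its antisense partner cannot be told apart with certainty.

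Among neighbouring members, qcr1 and sdh4 are transcribed away from each other on chromosome II with 1160 bases between their annotated starts in ASM294v3, at chrII:2032842-2034899 and chrII:2036060-2036579. Between the treated pools qcr1, at 317, 350, 359 and 372 FPKM, had a ratio of 0.09 ± 0.22, where sdh4 had -0.33 ± 0.21. Cox17 and sdh8 lie 504 bases apart on the same chromosome, and neither was called. Cox1101 and cox1102 are near copies, with 3 mismatches in 2262 coding bases (99.9% identity), made as fusions of an assembly factor of complex IV with a mitochondrial ribosomal protein. Their levels of 5.79 to 6.78 and 6.58 to 7.34 FPKM are uncertain, because the files do not show how reads that match both were shared.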

How the data were processed

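The members, gene lists and tests were chosen with earlier results of these data known. Per the submitters' processing notes, cutadapt, HISAT2 and Cuffdiff were used. No source used here gives their versions, the build, the annotation or the strand setting. The authors deposited 1 FPKM value per group of 2 libraries, so depth and replicate spread are unknown. The authors' deposited table gives, per pair of groups, log2 fold changes, test statistics (scores) and p-values with q-values.

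Here, log2 ratios used FPKM + 1, and a mean of at least 1 FPKM was required, which 56 of 57 members met. Calls are the authors' q-values under 0.05. Fold change divided by statistic gave standard errors; group variances were solved by least squares from the 6 pairs and rescaled to the pseudocount (6111 genes, relative misfit at most 9.5e-06). The difference of responses used a normal z test with Benjamini-Hochberg adjustment, tested on simulated data; over all genes its z statistics had a robust SD of 0.451, narrower than the normal curve assumes. All 57 member IDs, and 6737 of 7092 in all, matched RefSeq. An SE over 0.6 was found in 7 members in the wild-type response.

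Genes named are members called in any comparison, and in each role group those highest and lowest in level or largest in response, and per list up to 4 genes of at least 5 FPKM with the largest ratios. The planned model across libraries was replaced by this, since 1 value per group is given. Python 3.11.15, numpy 2.4.6, pandas 2.3.3, scipy 1.17.1 and matplotlib 3.10.9 were used. Some results are not reported here.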

Additional observations from a re-analysis of the deposited data

How the results depend on the processing

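No paired analysis was possible because the deposited values combine the replicates of each group; leaving out libraries and a replicate block were therefore not run. Other pseudocounts, filters and a median ratio of 0 kept the median over the 52 coding genes on its side of 0 in each comparison, and their counts within 1.5 times. At equal summed FPKM the median over the 52 coding genes went from 0.23 to -0.0174 in the wild-type response, from 0.12 to -0.0135 in the ∆wee1 response, from 0.03 to 0.34 between treated pools and from -0.09 to 0.016 for the response difference; quantile normalization gave -0.0091 in the ∆wee1 response. These scalings shift all coding genes, as stated with the results. The count that rose in wild type went from 8 to 1 at a q-value under 0.01 and to 0 with a 2-fold minimum, that in ∆wee1 from 1 to 0 and 0, and the count lower between treated pools from 3 to 1 and 0. Alternatives chosen after seeing the data were the normal curve, which gave 0, 0 and 0 for these counts, and members in a locus of their own, which left 4 of the 20 such genes risen in wild type and medians of -0.0044 between treated and 0.0216 (from 0.12) between untreated pools; fewer genes were counted there. In all other cases the cause was not tested. Errors were larger for the 32 members whose locus in the authors' table holds other genes (median SE 0.26, against 0.21). Depth is unknown, so no limit of detection can be given.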
